A study of Mus musculus with 28 samples.

Results

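Peroxins are the proteins that build the peroxisome, the single-membrane organelle that shortens very-long-chain fatty acids, breaks down branched ones, starts ether lipid synthesis and holds catalase. The 9 genes described here encode such assembly factors and were taken by symbol from the deposited table of raw counts: Pex2, Pex3, Pex5, Pex6, Pex10, Pex13, Pex14, Pex19 and Pex26, 9 of 24079 rows. All 9 passed the filter on low counts that left 15099 genes for testing. They were chosen by results of these libraries, above all the low Pex6 counts with the control siRNA, so each comparison with that siRNA is given as a description with a standard error and no test.

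PEX3 and PEX19 bring membrane proteins to the organelle. PEX5 picks up matrix enzymes in the cytosol and docks at PEX13 and PEX14, the RING proteins PEX2 and PEX10 then ubiquitinate the receptor, and the ATPase PEX6, held at the membrane by PEX26, helps to pull it out again for another round. Loss of these genes in humans causes the Zellweger spectrum disorders.

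RNA was sequenced in 28 libraries of mouse embryonic fibroblasts of C57BL/6x129Sv strain, all transformed with RAS and DNP53. Clones 12 and 14 carried tagged cyclin D1, and each gave 1 library with each of 5 targeting siRNAs, 1 with the control siRNA labelled SCR, 1 with leptomycin B (an inhibitor of nuclear export) at 20 ng/mL and 1 untreated. The targeting siRNAs were FLAG and HA, against the epitope tags, and Qiagen, Nature and Life, against cyclin D1 itself. Clones 18 and 25 carried untagged cyclin D1 and each gave 1 library with FLAG, HA and SCR siRNA. Clone 18 with the construct FLAG-mCherry-HA/PURO, or with mCherry/PURO, gave 3 more libraries per construct: HA REP1, HA REP2 and FLAG REP2. Cells were transfected or treated overnight and harvested the next morning. Each line is 1 clone, the mCherry lines all come from clone 18 and have no SCR library, and the sources used here do not name the promoter of the constructs. The labels do not say whether libraries came from separate cultures, so p-values measure the spread between these libraries, which may be technical.

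Library totals ran between 26558256 and 81512769 counts, the highest being the SCR library of clone 12, which also had the fewest genes with counts (14132). Rn45s, the ribosomal RNA precursor, exceeded 2% of counts in 4 libraries (at most 3.48%): Life clone 14, Nature clone 14, HA clone 12 and HA REP2 of the mCherry line. Ccnd1, the gene of cyclin D1, had between 50.1 and 329 CPM (counts scaled to library size) with the targeting siRNAs in tagged clones, against 1128 and 1287 CPM with SCR siRNA there. In untagged clones it had between 1014 and 1293 CPM with FLAG and HA siRNA, against 1313 and 1329 CPM with SCR siRNA. Of the 8 fibroblast markers, Vim (2768 to 8406 CPM), Fn1 (191 to 2875 CPM), S100a4 (186 to 4050 CPM) and Col3a1 (93.1 to 517 CPM) were present in every library. The other 4 were low in all 8 libraries of clone 14, with Col1a1 at 0.292 to 0.967 CPM, Col1a2 at 0.201 to 2.24 CPM, Pdgfrb at 1.02 to 3.19 CPM and Thy1 at 0 to 0.0494 CPM. Of the epithelial markers, clone 14 had Cdh1 at 21.7 to 40.0 CPM, against at most 5.96 CPM elsewhere, and Krt18 at 929 to 1919 CPM, against 86.5 to 1164 CPM elsewhere. Epcam was at most 0.867 CPM and Krt8 at most 10.9 CPM in any library. The summed markers of hepatocytes, cells rich in peroxisomes, were at most 3.70 CPM outside the SCR libraries and 2.81 CPM in them. These are bulk libraries, in which fewer cells of a type and less RNA per cell cannot be told apart.

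Pex6 encodes an ATPase that takes part in extracting the import receptor from the peroxisomal membrane. The gene (ID 224824) lies on the plus strand of chr17:46711463-46725541 (mm10). Its start region is shown because Pex6 is the member on which the comparison with SCR siRNA turns. The sequence is RefSeq's (GRCm38.p6, plus strand, chr17:46711226-46711525), with the start codon in capitals:

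Pex6 start region: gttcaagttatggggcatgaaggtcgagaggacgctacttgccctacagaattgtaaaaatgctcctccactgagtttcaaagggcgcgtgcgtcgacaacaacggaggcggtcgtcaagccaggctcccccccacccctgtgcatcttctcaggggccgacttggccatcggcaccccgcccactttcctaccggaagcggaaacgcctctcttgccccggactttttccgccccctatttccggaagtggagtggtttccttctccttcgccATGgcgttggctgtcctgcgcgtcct

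Pex6 was low in the 4 SCR libraries and at a higher, rather even level in the other 24, whatever the clone or treatment. In clone 12 it had 21.0 CPM with Life, 28.2 with Nature, 15.4 with Qiagen, 25.4 with HA and 24.0 with FLAG siRNA, against 5.23 CPM with SCR siRNA. In clone 14 it had 20.9 CPM with Life, 20.5 with Nature, 20.3 with Qiagen, 20.8 with HA and 19.5 with FLAG siRNA, against 6.79 CPM with SCR siRNA. All 10 libraries with a targeting siRNA stood above both SCR libraries, and the lowest of the 10 was Qiagen in clone 12. In the untagged clones, which have no FLAG or HA tag on cyclin D1, Pex6 had 23.3 CPM with FLAG and 18.8 CPM with HA siRNA, against 7.08 CPM with SCR siRNA, in clone 18. Clone 25 gave 17.6 CPM with FLAG and 18.9 CPM with HA siRNA, against 6.57 CPM with SCR siRNA. The gap between targeting and SCR siRNA was thus present in clones with and without the tagged gene.

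Libraries that received no siRNA stood with the targeting siRNAs. Pex6 had 23.7 and 19.1 CPM with leptomycin B and 19.1 and 14.4 CPM untreated in clones 12 and 14, all above the SCR libraries of the same clones. The 6 libraries of the mCherry lines had between 16.3 and 23.8 CPM. Over all 24 libraries without SCR siRNA the lowest, median and highest values were 14.4, 19.5 and 28.2 CPM, against 5.23, 6.68 and 7.08 CPM in the 4 SCR libraries. The labels of the untreated and leptomycin B libraries of clone 12 carry a date that no other label carries, so for clone 12 that date and the absence of siRNA cannot be told apart. The part of library depth in these values was not tested.

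**Figure D1:**
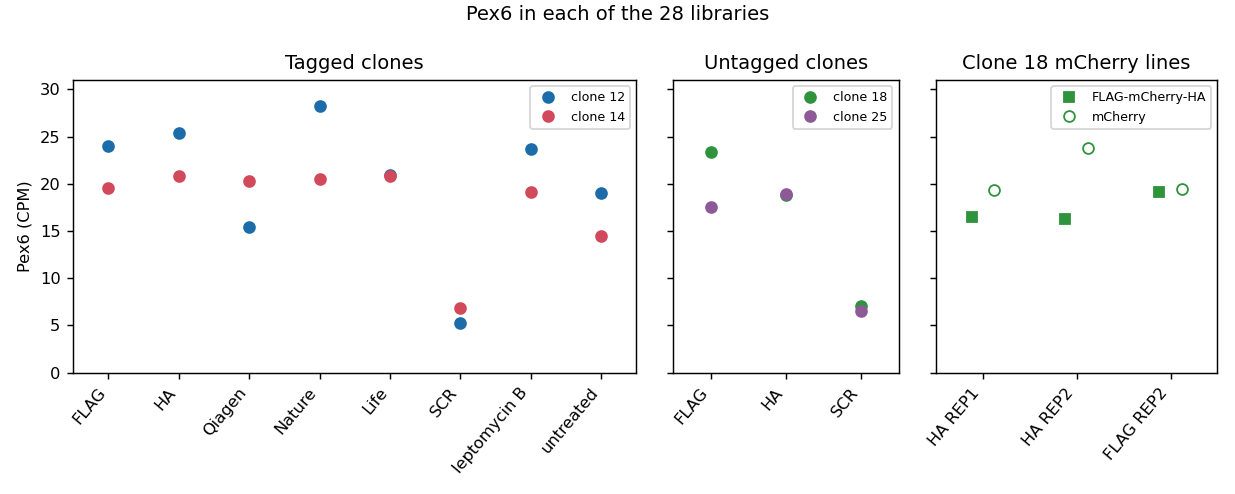
Pex6 in CPM (counts scaled to library size, vertical axis) in each of the 28 libraries, 1 point per library, by treatment and clone. The 24 points without SCR siRNA lie between 14.4 and 28.2 CPM, and the 4 SCR points between 5.23 and 7.08 CPM.

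The fitted log2 fold changes over SCR siRNA, given as description, put these values on a common scale. In tagged clones Pex6 was 1.90 (SE 0.19), or 3.72-fold, for the tag siRNAs, and it was 3.48-fold for the cyclin D1 siRNAs. In untagged clones it was 1.52 (SE 0.19) for the tag siRNAs, or 2.87-fold. By single siRNA the smallest value in tagged clones was that of Qiagen (1.58, SE 0.21) and the largest that of Nature (2.01, SE 0.21), with FLAG at 1.85, HA at 1.94 and Life between Qiagen and FLAG. In untagged clones FLAG gave 1.57 (SE 0.21) and HA 1.47 (SE 0.21). The difference between tag siRNAs and SCR siRNA was 0.37 (SE 0.26) larger in tagged than in untagged clones. Untagged clones have no untreated library, so the parts of tag and SCR siRNA in that value cannot be told apart. Set against untreated cells, SCR siRNA gave -1.47 (SE 0.21), and the 5 targeting siRNAs together gave 0.36 (SE 0.16). For the tag siRNAs in tagged clones the value was 1.62 without the SCR library of clone 12 and 2.19 without that of clone 14.

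Few genes had this arrangement. The 4 SCR libraries were the lowest 4 of 28 for 44 of the 15099 genes tested (0.291%), and Pex6 was the only one of the 9 members among them. The reverse, SCR libraries highest, held for 2 genes. Pex6 had the widest separation of the 44: its lowest value outside the SCR libraries was 2.04 times its highest SCR value, followed by Top1mt at 1.97 and Mocs2 at 1.72. These counts rest on the libraries that chose Pex6, so they place it among the other genes and support nothing further.

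The genes whose pattern was most like that of Pex6 were found by Pearson correlation of log2 CPM over the 28 libraries, after the mean of each clone or pair was subtracted, among 11771 genes. They were Ctxn1 (r = 0.959), Taldo1 (0.951), which encodes transaldolase of the pentose phosphate pathway, Mocs2 (0.950), an enzyme of molybdenum cofactor synthesis, Pigs (0.944), a subunit of the GPI transamidase, and Ppp2r1a (0.939), the scaffold subunit of protein phosphatase 2A. Taldo1 had between 91.7 and 228 CPM outside the SCR libraries, against 47.7 to 61.7 CPM in them. Ppp2r1a had between 228 and 333 CPM outside the SCR libraries, against 142 to 149 CPM in them. Without the SCR libraries the correlations over 24 libraries were 0.875 for Ctxn1, 0.792 for Pigs, 0.628 for Taldo1, 0.485 for Mocs2 and 0.472 for Ppp2r1a. The points share libraries, depth and the choice of the highest values, and no test was made.

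None of the other members shared the Pex6 pattern to this degree. Pex26, which encodes the membrane anchor of the PEX6 ATPase, came nearest, with r = 0.536 over 28 libraries. Over the 24 libraries without SCR siRNA the r of Pex26 with Pex6 was -0.118. It had 10.8, 11.1, 10.0, 10.1 and 8.17 CPM with FLAG, HA, Qiagen, Nature and Life siRNA in clone 12, against 8.06 CPM with SCR siRNA. In clone 14 the same siRNAs gave 15.5, 14.9, 17.3, 17.1 and 13.0 CPM, against 13.0 CPM with SCR siRNA. The SCR library was thus the lowest of its clone, though level with Life siRNA in both tagged clones.

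In untagged clones Pex26 had 11.1 and 11.7 CPM with FLAG siRNA and 10.5 and 11.3 CPM with HA siRNA, against 7.52 and 8.79 CPM with SCR siRNA, in clones 18 and 25. Pex26 and Pex6 were the members whose SCR library was the lowest in each of the 4 clones, as it was for 2.33% of all genes tested. As ratios to the SCR library of the same clone, Pex26 ran between 1.00 and 1.47 over 14 siRNA libraries, where Pex6 ran between 2.66 and 5.39. In leptomycin B and untreated cells the ratio was 1.49 to 1.94 for Pex26 and 2.12 to 4.53 for Pex6. The fitted values for Pex26 were 0.33 (SE 0.12) for the tag siRNAs and 0.25 (SE 0.12) for the cyclin D1 siRNAs in tagged clones, and 0.45 (SE 0.13) for the tag siRNAs in untagged clones. For SCR siRNA over untreated cells it was -0.58 (SE 0.14). Within each tagged clone the levels of Pex26 lay highest in the 2 libraries without siRNA, and those of Pex6 did not.

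The docking proteins, the receptor, the RING proteins and the membrane-protein chaperones lay on both sides of their SCR libraries. Over the 14 siRNA libraries the ratio to SCR siRNA of the same clone ran between 0.837 and 1.45 for Pex14, with 11 libraries above 1, and between 0.791 and 1.56 for Pex13, with 8 above. Pex14 was above SCR siRNA with FLAG and with HA siRNA in each clone. Its fitted values for the tag siRNAs were 0.30 (SE 0.14) in tagged and 0.35 (SE 0.14) in untagged clones. For the cyclin D1 siRNAs in tagged clones the Pex14 value was 0.15 (SE 0.13). For the receptor gene Pex5 the ratio ran between 0.760 and 1.21, with 6 above. The RING genes Pex2 and Pex10 spanned 0.698 to 1.40 and 0.617 to 1.25, with 7 and 4 libraries above. Pex3 spanned 0.900 to 1.48, with 11 above, and Pex19 spanned 0.524 to 1.13, with 4 above. The lowest Pex19 ratio was that of Life siRNA in clone 14.

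**Figure D2:**
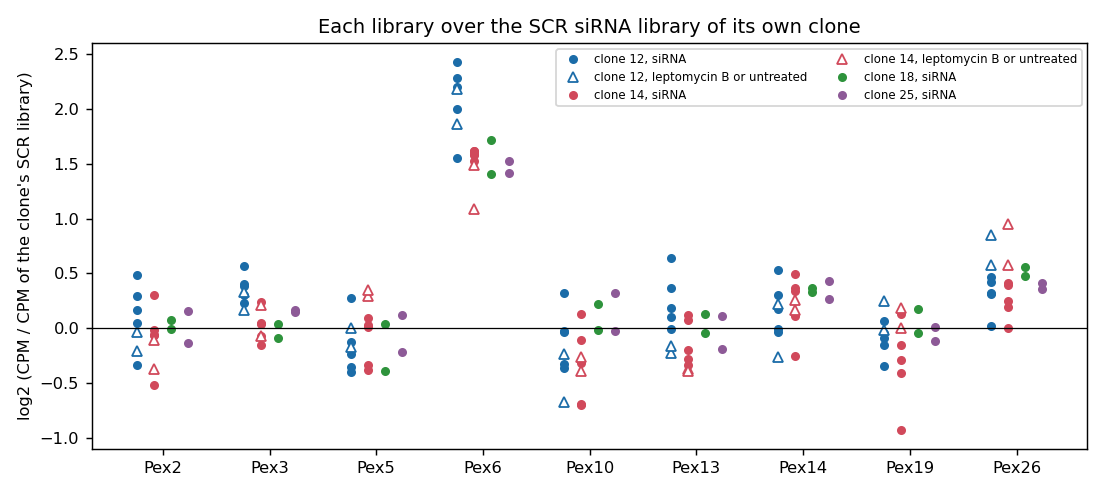
Each clone library of the 9 members as the log2 ratio of its CPM to that of the SCR library of the same clone (vertical axis). Filled circles are siRNA libraries and open triangles are leptomycin B or untreated libraries; only Pex6 lies above 1 throughout, and Pex26 lies at or above 0 throughout.

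The spread over all libraries restates this contrast, because it includes the SCR libraries that chose Pex6, and it adds no support. After clone and pair means were subtracted, log2 CPM of Pex6 had an SD of 0.60 over the 28 libraries, more than 87.2% of the genes tested. For the other 8 members it lay between 0.12 (Pex3) and 0.24 (Pex26), which 3.09% and 34.3% of genes fell below. Over the 24 libraries without SCR siRNA the SD of Pex6 was 0.20, above 23.9% of genes and within the range of the other members, 0.11 to 0.23. Correlations of the other members with Pex6 ran between -0.188 (Pex5) and 0.536 (Pex26) over 28 libraries, and between -0.122 and 0.255 without the SCR libraries. The closest pair among the 9 was Pex2 with Pex10, both RING genes (r = 0.648).

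The HA and FLAG siRNAs could be compared in 6 pairs of libraries, from clones 12, 14, 18 and 25 and from both mCherry constructs (REP2). No SCR library was in the contrast, but the fit and its estimate of spread used all libraries. The test asks whether the 2 tag siRNAs differ, and 4 of the 6 pairs have no tagged cyclin D1. Pex5 was the member that differed most. It had 92.4, 52.6, 46.8 and 58.6 CPM with HA siRNA, against 58.0, 37.8, 34.8 and 46.6 CPM with FLAG siRNA, in clones 12, 14, 18 and 25. In the FLAG-mCherry-HA line it had 45.7 CPM with HA and 31.1 CPM with FLAG siRNA, and in the mCherry line 42.0 CPM with HA and 27.1 CPM with FLAG siRNA. The HA library was the higher one in all 6 pairs.

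The fitted log2 difference of Pex5 was 0.52 (SE 0.09, 95% interval 0.33 to 0.70, edgeR adjusted p = 0.000803). It stayed past the threshold, an adjusted p under 0.05 over all genes, in 13 of 13 fits that left out 1 library. Values there lay between 0.43 and 0.55, and the libraries left out were those compared and SCR of clone 12. The call ended in a fit without the block for clone and pair (adjusted p = 0.297). Across all genes 1288 passed (8.53%), and 2 of the 9 members did. Against SCR siRNA, as description, Pex5 was 0.19 (SE 0.15) with HA and -0.39 (SE 0.15) with FLAG siRNA in tagged clones, and 0.08 (SE 0.15) with HA and -0.30 (SE 0.15) with FLAG siRNA in untagged clones.

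Pex19, the chaperone of peroxisomal membrane proteins, was the second and differed the other way. It had 60.8, 70.5, 63.2 and 71.7 CPM with HA siRNA, against 65.3, 85.4, 73.4 and 78.6 CPM with FLAG siRNA, in clones 12, 14, 18 and 25. In the FLAG-mCherry-HA line it had 60.8 CPM with HA and 79.4 CPM with FLAG siRNA, and in the mCherry line 54.8 CPM with HA and 79.2 CPM with FLAG siRNA. The HA library was the lower one in all 6 pairs, with a fitted difference of -0.28 (SE 0.08, edgeR adjusted p = 0.0281). This call ended, with adjusted p between 0.0531 and 0.101, without any 1 of 7 libraries: FLAG or HA of clone 14, FLAG or HA of clone 18, HA of clone 25, or either REP2 library of the mCherry line. It also ended in a fit of only the libraries compared (adjusted p = 0.0767) and in one without the block (0.559).

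Pex10 and Pex13 were also higher with HA siRNA in 6 of 6 pairs and Pex3 lower in 6 of 6, without passing the test. Pex10 had a difference of 0.36 (SE 0.12, edgeR adjusted p = 0.0921), Pex13 of 0.27 (SE 0.08, adjusted p = 0.0567, or 0.0460 among genes of at least 1 CPM and 0.0496 without SCR of clone 12) and Pex3 of -0.07 (SE 0.08, adjusted p = 0.693). With DESeq2, Pex10 (adjusted p = 0.0458) and Pex13 (0.0236) passed. Of all genes, 8.38% were higher with HA siRNA in all 6 pairs and 8.79% lower. The difference of Pex6 was 0.00 (SE 0.12, 95% interval -0.24 to 0.25), with HA above FLAG in 4 of 6 pairs. Tests of whether the HA to FLAG difference itself changed between tagged clones, untagged clones and mCherry lines called 0 of the 9 members and 0 of all genes. Of the peroxisomal enzymes and transporters, 0 of the 42 tested passed.

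**Figure D3:**
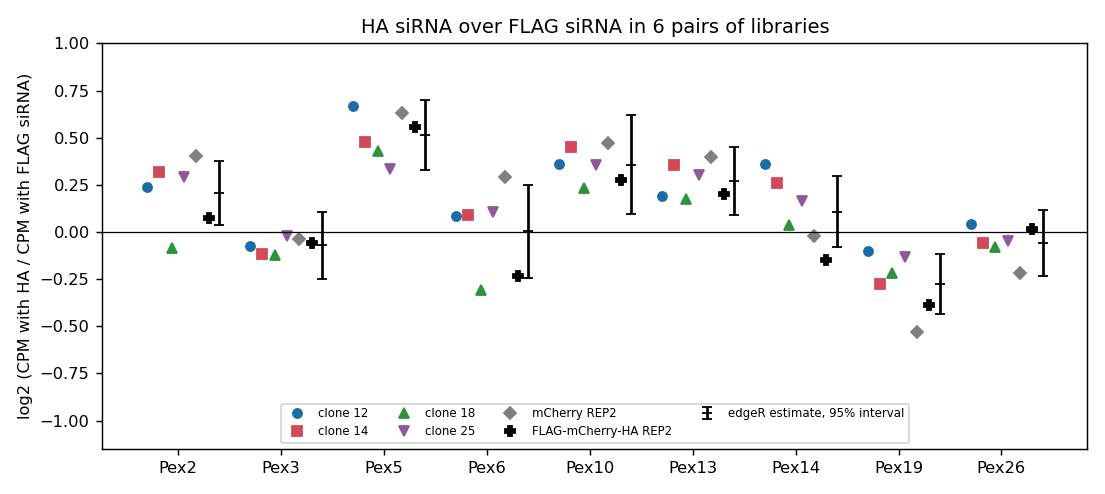
Log2 ratio of CPM with HA siRNA to CPM with FLAG siRNA (vertical axis) for the 9 members, 1 symbol per pair of libraries, with the edgeR estimate and its 95% interval at the right of each gene. All 6 pairs of Pex5 lie above 0 and all 6 of Pex19 below it, while those of Pex6 fall on both sides.

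The 5 targeting siRNAs were compared among themselves in the tagged clones to ask whether single siRNAs moved a gene. Of all genes tested 25.1% differed among them, and 3 of the 9 members did. Pex2, a RING ubiquitin ligase, was lowest with Life siRNA. In clone 12 it had 28.3 CPM with Life siRNA, against 37.0 with FLAG, 43.7 with HA, 40.0 with Qiagen and 49.8 with Nature. In clone 14 it had 33.8 CPM with Life siRNA, against 47.8 with FLAG, 59.6 with HA, 46.5 with Qiagen and 46.4 with Nature. The difference among siRNAs passed the test (edgeR F test, adjusted p = 0.00740) and ended without either Life library (adjusted p = 0.0554 without that of clone 12 and 0.0722 without that of clone 14) and without the block (1.00).

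Pex19 showed the same order at its low end. It had 49.2 CPM with Life siRNA in clone 12, against 65.3 with FLAG, 60.8 with HA, 56.2 with Qiagen and 58.7 with Nature. In clone 14 it had 41.0 CPM with Life siRNA, against 85.4 with FLAG, 70.5 with HA, 59.1 with Qiagen and 63.8 with Nature. The edgeR F test gave an adjusted p of 0.00742, which lay under the threshold with each compared library, or SCR of clone 12, left out in turn. The Life library of clone 14 is the one with the most Rn45s, and without the 4 libraries over 2% Rn45s the adjusted p was 0.0684; it was 0.0628 with only the libraries compared and 0.268 without the block.

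Pex5 lay at the threshold (adjusted p = 0.04998), with its highest value for HA siRNA in both clones, 92.4 and 52.6 CPM. Leaving out 1 library ended that call in 10 of 11 cases, with adjusted p up to 0.345 without HA of clone 12; it held without Qiagen of clone 14 (0.0381). The call also ended without the 4 libraries over 2% Rn45s (adjusted p = 0.424), with only the libraries compared (0.0962), with relative log expression size factors (0.0552) and without the block (1.00). Pex6 did not differ detectably among the 5 siRNAs (edgeR F test, adjusted p = 0.446). Its levels over those 10 libraries spanned 15.4 to 28.2 CPM. Pex10, Pex13 and Pex14 missed the threshold with edgeR and passed it with DESeq2 (adjusted p = 0.0385, 0.0175 and 0.0132).

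**Figure D4:**
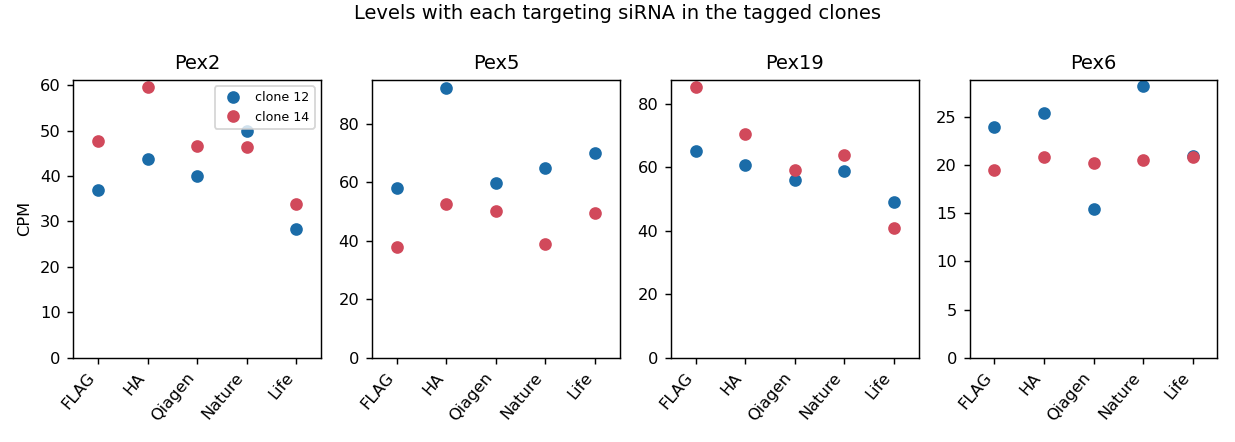
CPM (vertical axis, each panel on its own scale starting at 0) of Pex2, Pex5, Pex19 and Pex6 with each targeting siRNA in tagged clones 12 and 14, 1 point per library. Pex2 and Pex19 have their lowest points with Life siRNA in both clones.

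The cyclin D1 siRNAs as a group were compared with the tag siRNAs as a group, again without SCR libraries in the contrast. In the edgeR fit Pex19, 1 of the 9 members, passed the test, where 6.99% of all genes did. It was lower with the cyclin D1 siRNAs, at 41.0 to 63.8 CPM over 6 libraries, than with the tag siRNAs, at 60.8 to 85.4 CPM over 4 libraries, so that the groups overlapped. Its log2 difference was -0.37 (SE 0.08, 95% interval -0.54 to -0.19, edgeR adjusted p = 0.0118). The call ended without FLAG of clone 14 (-0.31, adjusted p = 0.108) or HA of clone 14 (-0.36, adjusted p = 0.0624), and without the 4 libraries over 2% Rn45s (-0.25, adjusted p = 0.252). It also ended with only the libraries compared (adjusted p = 0.0690) and without the block (0.290). Pex10 had -0.38 (SE 0.14, edgeR adjusted p = 0.119), Pex2 -0.21 (SE 0.09, adjusted p = 0.187) and Pex6 -0.10 (SE 0.13, 95% interval -0.37 to 0.18, adjusted p = 0.725). Pex10 passed with DESeq2 (-0.38, adjusted p = 0.0471), and without Nature of clone 12 Pex10 (-0.49, adjusted p = 0.0320) and Pex2 (-0.29, adjusted p = 0.0413) passed with edgeR.

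Peroxisomal enzymes and transporters in the same comparison moved both ways. Of 42 tested, 3 were higher with the cyclin D1 siRNAs, where 3.09% of all genes were, and 4 were lower, where 3.9% were. Slc25a17, the peroxisomal carrier for CoA and related cofactors, was lower (-0.54, SE 0.09, edgeR adjusted p = 0.000596). Agps, an enzyme of ether lipid synthesis, was lower (-0.49, SE 0.09, adjusted p = 0.00332), as was the mevalonate pathway enzyme Pmvk (-0.58, SE 0.12, adjusted p = 0.00414). Acbd5, a membrane protein that tethers peroxisomes to the endoplasmic reticulum, was higher (0.51, SE 0.09, adjusted p = 0.00143).

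Leptomycin B was compared with untreated cells in clones 12 and 14 to ask whether blocking nuclear export moved the members. No siRNA library was in the contrast, but the fit and its estimate of spread used all libraries. None of the 9 passed the test, where 9.99% of all genes did, and their median log2 difference was 0.02, against 0.03 over all genes. Pex6 had 23.7 and 19.1 CPM with leptomycin B, against 19.1 and 14.4 CPM untreated, in clones 12 and 14. It was higher in both clones, at 1.24 and 1.32 times the untreated level, with a fitted difference of 0.35 (SE 0.20, 95% interval -0.07 to 0.78, edgeR adjusted p = 0.298). Fitted on these 4 libraries alone, Pex6 passed (0.36, edgeR adjusted p = 0.0394), as 4494 genes did there, against 1508 in the fit of all libraries. The fit of 4 libraries estimates a mean per group and a clone term, which leaves little from which to measure spread. Pex26 had 14.6 and 25.2 CPM with leptomycin B, against 12.0 and 19.4 CPM untreated, a difference of 0.33 (SE 0.14, adjusted p = 0.149). Both genes were higher in both clones by about the same factor, and neither passed in the fit of all libraries.

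Some genes on the list of peroxisomal enzymes and transporters were higher with leptomycin B. Of the 42 tested, 7 were higher and 0 lower, where 4.29% of all genes were higher and 5.7% lower, and the median log2 difference of the list was 0.32, against 0.03 over all genes. The 4 with the smallest p were Crot, which passes shortened fatty acids on to carnitine (1.03, SE 0.13, edgeR adjusted p = 8.78e-05), Cat, the catalase gene (0.72, SE 0.17, adjusted p = 0.0133), Decr2, a reductase for unsaturated fatty acids (0.63, SE 0.16, adjusted p = 0.0164), and Idh1, an isocitrate dehydrogenase of cytosol and peroxisome (0.56, SE 0.16, adjusted p = 0.0320). Phyh, Amacr and Mpv17 were the other 3. Whether the product of each listed gene, Mpv17 among them, lies in peroxisomes was not checked. Of the 19 genes of peroxisome division, turnover and regulation tested, 3 passed, named here after their values were seen: the autophagy receptor Nbr1 was higher (0.59, SE 0.15, adjusted p = 0.0170). The nuclear receptors Rxra (-0.74, SE 0.16, adjusted p = 0.00753) and Pparg (-0.71, SE 0.20, adjusted p = 0.0332) were lower.

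**Figure D5:**
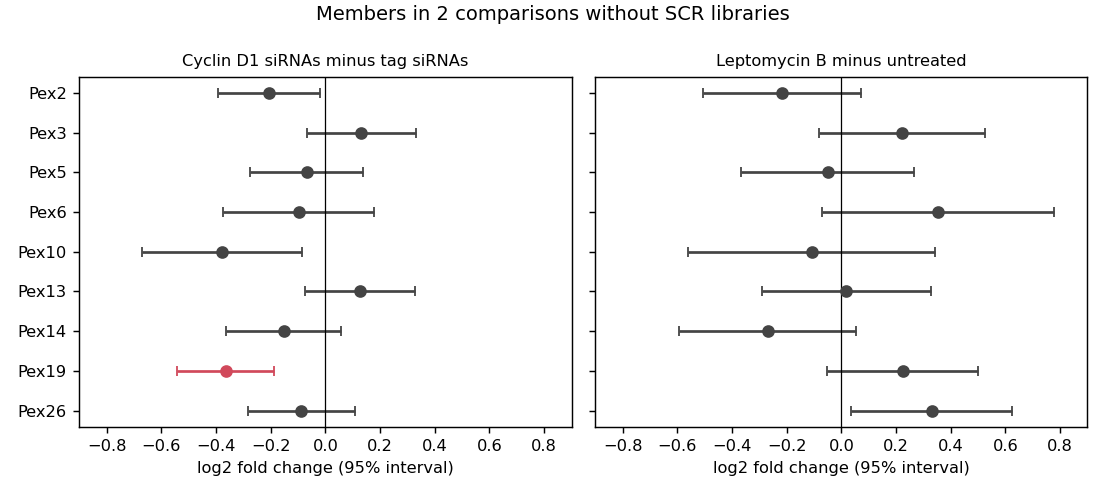
Log2 differences of the 9 members with 95% intervals from edgeR (horizontal axis), for cyclin D1 siRNAs minus tag siRNAs (left) and leptomycin B minus untreated cells (right), tagged clones. Pex19 at -0.37 on the left, in red, is the member that passed the test; none did on the right.

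A tag siRNA that meets a tagged mRNA other than cyclin D1 was examined in clone 18, where FLAG-mCherry-HA was compared with mCherry in 3 pairs under the same siRNA. Pex6 had 16.5, 16.3 and 19.1 CPM in FLAG-mCherry-HA cells, against 19.3, 23.8 and 19.4 CPM in mCherry cells, with HA REP1, HA REP2 and FLAG REP2. It was lower in all 3 pairs, with a difference of -0.27 (SE 0.17, 95% interval -0.62 to 0.08, edgeR adjusted p = 0.571). The other members lay between -0.07 (Pex3) and 0.11 (Pex13), and 0 of the 9 passed. The percentage of all genes that passed was 0, with 1390 at an unadjusted p under 0.05, and DESeq2 called 15.

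Tagged and untagged clones were compared in their SCR libraries, 2 against 2. Pex6 had 5.23 and 6.79 CPM in the tagged clones 12 and 14, against 7.08 and 6.57 CPM in the untagged clones 18 and 25, a difference of -0.18 (SE 0.50). Low counts in these same libraries chose Pex6, so its test cannot decide whether the clones differ, and the value is a description. None of the 9 members passed, nor did any of the 13233 genes tested (0%), with 442 at an unadjusted p under 0.05 and 177 called by DESeq2. Single clones also differed in level. Pex2 averaged 21.1 ± 2.16 CPM (SD, n = 3) in clone 25, where the other clones averaged 37.5 to 45.6 CPM. Pex3 averaged 29.9 ± 3.48 CPM (n = 8) in clone 12 and 30.0 ± 1.87 (n = 3) in clone 25, but 21.7 ± 2.08 (n = 8) in clone 14 and 19.0 ± 0.824 (n = 3) in clone 18. Pex26 averaged 16.9 ± 3.99 CPM (n = 8) in clone 14 and 9.70 to 10.6 CPM in the others. The clones hold different sets of treatments, and these means were not tested.

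Levels can be compared between genes only per length, here as CPM per kb of annotated exon. The medians over 28 libraries were 17.1 for Pex19, 16.9 for Pex2 and 12.7 for Pex5, then 6.86 for Pex13, 5.07 for Pex6, 4.94 for Pex14 and 4.59 for Pex3, and 1.95 for Pex10 and 1.93 for Pex26. The neighbours within each of these 3 sets lay closer together than each gene's own range over the libraries. In SCR libraries Pex6 went as low as 1.38 CPM per kb, below the median of Pex10. On the scale of counts, Pex6 had at least 239 reads in every library, more than the 139 reads of the lowest Pex10 value.

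Genes next to the members were read for shared counts, since the sources used here do not say whether counting used strand. Gm26904, a long noncoding RNA gene, spans Pex6 on the same strand. It shares 0 exon bases with Pex6 and was matched to no row of the deposited counts. The nearest protein-coding genes of Pex6 both lie on the other strand. Ppp2r5d, 6351 bases away, had between 87.5 and 198 CPM outside the SCR libraries and 101 to 181 CPM in them, with no shift like that of Pex6. Gnmt, 122 bases beyond the other end, was at most 0.252 CPM in any library. Pex3 shares 249 exon bases with Adat2 on the opposite strand, and Adat2 had 7.66 and 3.87 CPM with Life siRNA in clones 12 and 14, below its other libraries (10.9 to 28.5 CPM), while Pex3 had 31.7 and 24.9 CPM there. Pex14 shares 1776 exon bases with the antisense gene Gm17029, Pex26 shares 133 with Gm44014 and Pex13 shares 2 with Pus10, so reads of these pairs cannot be told apart without strand.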

How the data were processed

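Gene counts were measured by RNA-seq of poly(A) RNA (stranded kit, single reads of 100 bp, per the labels' protocols). Per the submitters' processing notes, the genome build was mm10 and the tools were HTSeq 0.6.1p1, Bowtie2 2.2.3, TopHat2 2.0.13, FastQC and CASAVA 1.8.2. Neither the strand setting of the counting nor its annotation is stated in the sources used here. Raw gene counts were deposited by the authors as 1 table of 24079 rows, and 0 of its sample columns were left unused. In all, 22 rows had no gene ID; they took at most 0.0137% of any library and were kept in library totals. An n of 3 or 4 stands in the titles without explanation, and each library was treated as 1 sample. Coordinates and exon lengths came from GENCODE vM21 (GRCm38, the assembly of mm10), and the printed sequence from RefSeq, whose promoter table held 7 of the 9 members.

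The deposited counts were fitted with edgeR 4.0.16 in R 4.3.3, after TMM scaling and the filter filterByExpr, grouped by condition. The model was a robust quasi-likelihood fit of 28 libraries in 15 groups with clone or pair as a block (17 coefficients, 11 residual degrees of freedom, biological coefficient of variation 14.6%). The pairing comes from the clone named in the labels. Libraries of a clone deviated together, with correlations of at least 0.834 in tagged and 0.862 in untagged clones. Tagged and untagged clones were compared in their 4 SCR libraries without a block. A gene passed at a Benjamini-Hochberg adjusted p under 0.05 over all genes tested. Standard errors are the log2 fold change over the square root of F. CPM values were computed with TMM size factors, and log2 CPM used a prior count of 2. The members, gene lists and contrasts were chosen with earlier results of these data known. Named genes were the members, Ccnd1, up to 4 called peroxisomal enzymes per comparison, the 5 genes most correlated with Pex6 among those averaging 1 CPM or more, and neighbours in the annotation; others are said to be named after their values were seen. Peroxins outside the 9 were a further list and are not reported here. The fit was also run on counts simulated from its own means and dispersions. Such counts are independent between libraries, so they cannot show how the p-values behave if the spread is technical. Alternatives were relative log expression size factors, no filter, genes of at least 1 CPM, no block, only the libraries compared, leaving out the 4 libraries over 2% Rn45s, other siRNA libraries in place of SCR, and DESeq2 1.42.0, and each library was left out in turn.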

Additional observations from a re-analysis of the deposited data

How the results depend on the processing

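The log2 differences of Pex6 over SCR siRNA moved by less than the spread between libraries in each alternative run on them. Those were relative log expression size factors, no filter, no block, leaving out the 4 libraries over 2% Rn45s, and DESeq2. The alternatives with genes of at least 1 CPM and with only the libraries compared were not run on them. The spread was the SD of the library log2 ratios to SCR siRNA over both clones, so it includes the difference between clones. Shifts on leaving out 1 library also stayed below it. Leaving out 1 SCR library moves the value by part of that same difference, so staying below the SD cannot show stability. The runs that left out 1 library gave 1.62 to 2.19 for the tag siRNAs and 1.52 to 2.10 for the cyclin D1 siRNAs in tagged clones. In untagged clones they gave 1.43 to 1.62 for the tag siRNAs. The pairing by clone mattered most. With no replicate block, genes called fell to 48 for leptomycin B, 88 for cyclin D1 against tag siRNAs, 273 among the 5 siRNAs and 157 for HA against FLAG siRNA, and the members lost their calls: Pex5 (adjusted p = 0.297) and Pex19 (0.559) for HA against FLAG, Pex19 for cyclin D1 against tag siRNAs (0.290), and Pex19 (0.268), Pex2 and Pex5 (1.00 each) among the 5.

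Other counts of genes that moved by over 1.5 times were as follows. Without the 4 libraries over 2% Rn45s there were 312 for cyclin D1 against tag siRNAs and 760 for HA against FLAG. Fitted on only the libraries compared there were 4494 for leptomycin B and 782 for HA against FLAG, and Pex19 ended there with adjusted p of 0.0767 for HA against FLAG, 0.0690 for cyclin D1 against tag siRNAs and 0.0628 among the 5. DESeq2 called 2263, 1676, 15 and 177 for leptomycin B, cyclin D1 against tag siRNAs, FLAG-mCherry-HA against mCherry, and tagged against untagged clones, and no filter gave 2 and 1 for the last 2 of these. Leaving out 1 library gave 560 to 1513 genes for leptomycin B, 451 to 1510 for cyclin D1 against tag siRNAs and 741 to 1343 for HA against FLAG. The low counts came without the untreated (560 in clone 12, 649 in clone 14) or leptomycin B library of clone 12 (628). They came without FLAG of clone 12 (617) or 14 (451) or HA of clone 14 (476) for cyclin D1 against tag siRNAs. For HA against FLAG they came without HA of clone 14 (741), FLAG of clone 18 (855), or HA (780) or FLAG (756) of the mCherry REP2 line. Members that gained a call with DESeq2 were Pex10 (0.0458) and Pex13 (0.0236) for HA against FLAG, Pex10 (0.0471) for cyclin D1 against tag siRNAs, and Pex10 (0.0385), Pex13 (0.0175) and Pex14 (0.0132) among the 5. With genes of at least 1 CPM, Pex13 (0.0460) for HA against FLAG and Pex14 (0.0479) among the 5 passed. Leaving out 1 library, members gained calls among the 5 without Nature of clone 12 (Pex10 0.0486, Pex13 0.0257), Nature of clone 14 (Pex13 0.0321) or Qiagen of clone 12 or 14 (Pex14 0.0250 and 0.0256). The cause of these shifts was not tested.

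Of the values that changed sign, 0 passed the test in either fit. For HA against FLAG, Pex6 was -0.0165 with relative log expression factors, -7.36e-05 with no filter, -0.00726 with genes of at least 1 CPM, -0.0222 with no block, -0.13 without the Rn45s libraries and -0.0165 with DESeq2. Without the Rn45s libraries, cyclin D1 against tag siRNAs gave 0.10 for Pex5, 0.000861 for Pex6 and 0.0104 for Pex14, and the mCherry comparison gave -0.0244 for Pex5 and -0.10 for Pex26. With HA libraries in place of SCR, Pex6 was 0.30 in tagged against untagged clones, and with FLAG libraries it was 0.0914 and Pex3 0.00698. Leaving out 1 library, the ranges that crossed 0 were, for leptomycin B, Pex5 -0.29 to 0.13, Pex10 -0.45 to 0.13 and Pex13 -0.0592 to 0.0903. For cyclin D1 against tag siRNAs Pex5 ran over -0.16 to 0.0178, and for HA against FLAG Pex6 over -0.0856 to 0.0648. For the mCherry constructs they were Pex2 -0.0750 to 0.0804, Pex3 -0.12 to 0.00320, Pex5 -0.0441 to 0.16, Pex10 -0.00791 to 0.0825 and Pex26 -0.0896 to 0.0876. For tagged against untagged clones they were Pex3 -0.31 to 0.24, Pex5 -0.00635 to 0.61, Pex6 -0.39 to 0.000726, Pex10 -0.0268 to 0.59, Pex13 -0.18 to 0.25, Pex19 -0.20 to 0.14 and Pex26 -0.0218 to 0.68. With 2 libraries in most groups, differences under about the printed intervals were not detectable at this depth.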
